A study of Homo sapiens with 6 samples.

Results

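The genes described here encode enzymes that write or erase marks on histones and DNA, proteins that bind those marks, and the CHD and related ATPases that move nucleosomes. They were chosen by symbol among the 59050 gene symbols of the count files: the families KMT2, KMT5, SETD, KDM, PRMT, KAT, HDAC, SIRT, EZH, CBX, DNMT, TET and CHD, with SMARCA1, SMARCA5, SMARCAL1, INO80, EED and SUZ12. Of KAT and KDM, only symbols that end in a letter were taken, which leaves out KAT5, KAT7, KAT8 and KDM8. The rule gave 95 genes, sorted by function into 14 classes, of which 92 had enough reads to be tested. SIRT6 was not analysed here. Among the 3 not tested, KDM4E had 0 reads in all 6 libraries, PRMT8 had 7 to 10 reads in the knockout libraries and 7 to 16 in the parental ones, and KDM5D values are not given.

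RNA-seq was made from H2122, a human lung cancer cell line, in 3 libraries labelled as a SMARCA4 knockout and 3 labelled as the parental line. Both groups were treated with vehicle, and neither the way the knockout was made nor the vehicle was given in the labels. Each title also bears an unexplained number, 1 for every knockout library and 1, 3 or 6 for the parental libraries. If it marks a clone, which the labels do not state, the knockout libraries come from a single clone, and clone and knockout cannot be told apart. Replicates are not stated to be separate cultures, and the p-values therefore describe the spread of these libraries alone, which may be technical.

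SMARCA4 is one of a pair of alternative ATPases of the SWI/SNF complexes, which slide and evict nucleosomes. SWI/SNF acts on the same chromatin as the enzymes described here: Polycomb complexes, which methylate lysine 27 of histone H3 and compact chromatin, oppose it, and acetyltransferases, deacetylases and the NuRD complex, built on CHD ATPases, meet it at enhancers and promoters. ISWI and CHD remodelers are separate machines that space nucleosomes, and DNA methyltransferases and TET enzymes add methyl groups to cytosine or oxidise them. Levels below are CPM, assigned reads scaled to a common library size after TMM adjustment, and changes are log2 fold changes of knockout over parental libraries with their standard error (SE). A gene was said to rise or fall at an adjusted p under 0.05 in edgeR's quasi-likelihood test across all genes. In bulk RNA, fewer cells that express a gene and less RNA per cell cannot be told apart.

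SMARCA4 itself had 20.7, 19.3 and 24.9 CPM in the knockout libraries, against 231.5, 214.5 and 335.0 CPM in the parental ones (-3.59, SE 0.22, adjusted p = 0.000176). SMARCA2, the other SWI/SNF ATPase, averaged 67.7 ± 2.43 CPM in knockout and 67.1 ± 7.30 CPM in parental libraries (SD, n = 3 each; 0.01, adjusted p = 0.943). Libraries held 55120937 to 59917980 reads assigned to genes, so the limit of 3 reads lay at 0.0501 to 0.0544 CPM, for counting error only. The epithelial markers EPCAM, CDH1, KRT7, KRT8, KRT18 and KRT19 were above that limit in every library, and their summed level was 3156.7 to 3422.3 CPM in knockout and 6930.9 to 7700.1 CPM in parental libraries, with 5 of the 6 falling. Of the fibroblast markers, LUM (6.18) and COL3A1 (5.00) rose and COL1A1 (-1.46) fell, and summed levels were 53.4 to 58.1 CPM in knockout and 39.3 to 110.1 CPM in parental libraries. COL3A1 had 4, 1 and 22 reads in the parental libraries and passed the low-count filter through the knockout group, where it is high. Its fold is given as a description. Endothelial markers summed to 1.27 to 1.77 CPM in knockout and 0.686 to 1.37 CPM in parental libraries, and haematopoietic markers to 0.436 to 0.745 CPM in knockout and 1.37 to 1.86 CPM in parental libraries, with PTPRC, which marks leukocytes, at 0 reads in all 6. Of these lists, CDH5 (2.74) rose and CD79A (-2.51) and LYZ (-2.62) fell. Each had few reads and passed the low-count filter through the group where it was high. The part of these markers in the results below was not tested.

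One library, parental replicate 3, differed from the other 5. It held 4781.5 CPM of 20 proliferation markers, none at or under the limit in any library, while the knockout libraries held 1053.4 to 1177.5 CPM and parental replicates 1 and 2 held 843.9 and 791.3 CPM. None of the 20 passed with all 6 libraries, where their median log2 fold change was -1.14. Without parental replicate 3 the median was 0.51 and 17 passed, 16 rising and 1 falling. Among the 90 members at 1 CPM or more on average, the median coefficient of variation was 4.08% within the knockout group and 18.6% within the parental group, and 3.99% over parental replicates 1 and 2 alone. Results that rest on this library are given with and without it for some members, and with all 6 libraries only for others. Its part in them beyond those values was not tested.

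Of the 92 tested genes, 10 rose and 6 fell, 17.4% of them, where 27.6% of all 17809 genes tested passed (13.3% rising and 14.3% falling). At an unadjusted p under 0.05 there were 28 of the 92 members. The share of all genes at that threshold was not counted. It is larger than the 27.6% that passed after adjustment, because further genes met the unadjusted threshold without passing. The 28 members therefore cannot be read as an excess over all genes. The members' median log2 fold change was 0.05 and that of all genes 0.02. The median absolute change was 0.23 among members and 0.41 among all genes, and 5 members changed by at least 2-fold, which is 5.43% of members where 21.5% of all genes did so. Most of the 16 changes were thus small, with 11 under 2-fold. For 36 of the 92 members (39.1%) every knockout value lay on one side of every parental value, and so for all 16 that passed, where 49.8% of all genes were separated in this way. The share of members that passed was above that of all genes once parental replicate 3 was left out, as given with that comparison. CHD5, one of the 16 and of the 5, reached the test through its knockout reads alone.

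**Figure D1:**
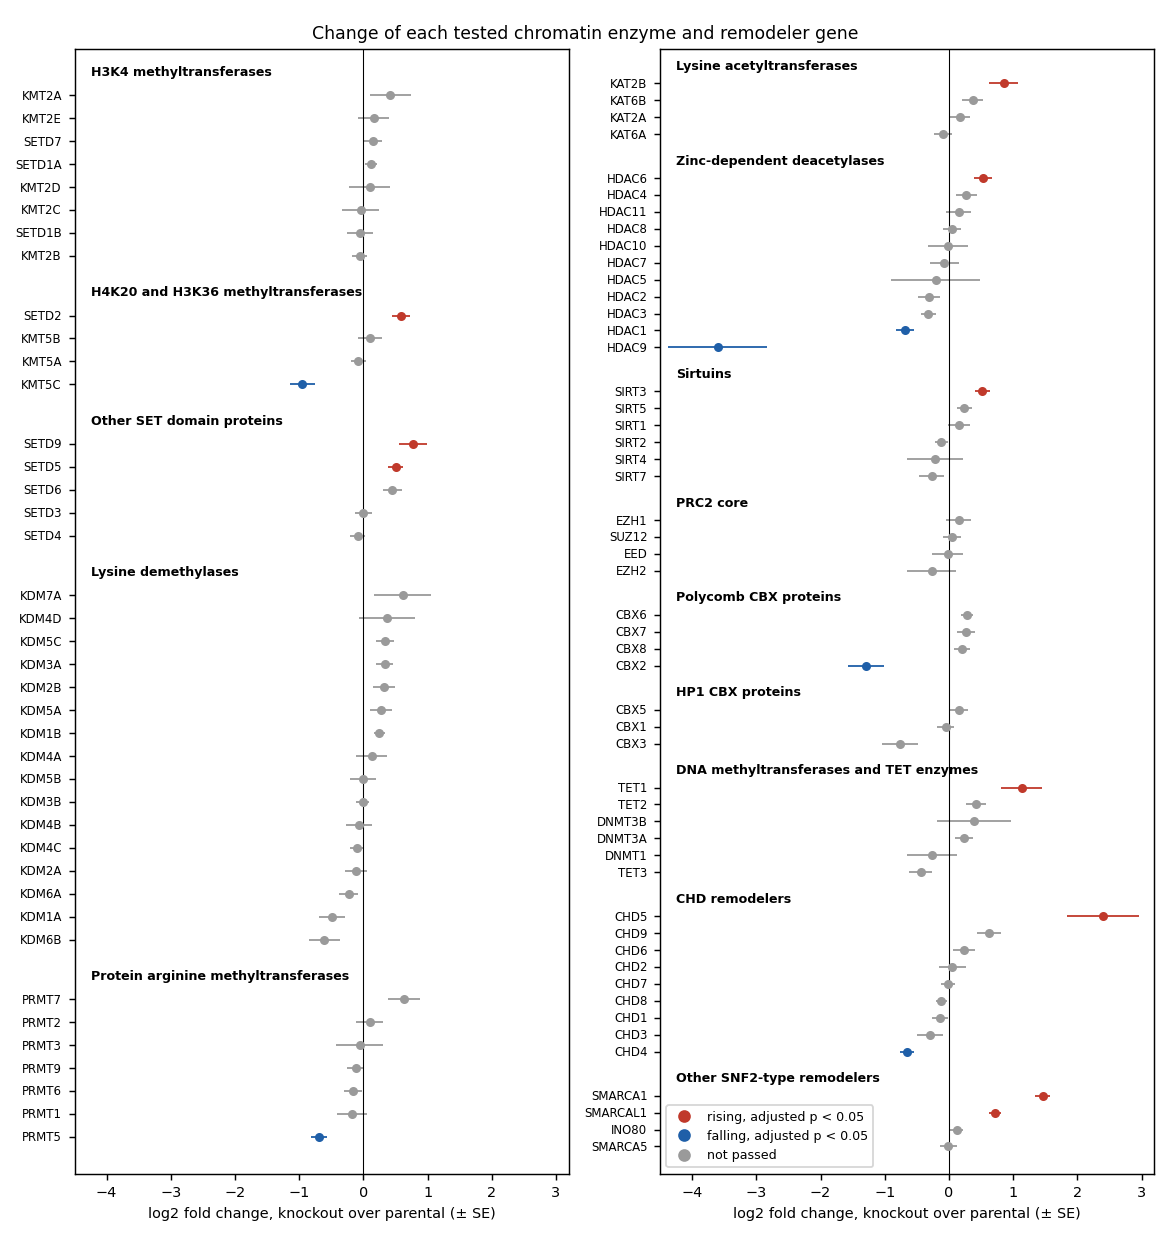
Log2 fold change of knockout over parental libraries (x axis) for 91 tested genes, by class, as points with bars of 1 SE; red points rose, blue points fell and grey points did not pass. The 16 coloured points run from HDAC9 at -3.60 to CHD5 at 2.40, a gene that passed the low-count filter through its knockout reads alone, and the H3K4 methyltransferases, lysine demethylases, PRC2 core and HP1 classes hold none.

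The nucleosome-sliding ATPase gene SMARCA1 rose with the smallest adjusted p of all members. SMARCA1 encodes SNF2L, an ISWI ATPase, and SMARCA5 encodes its paralog SNF2H, which is the ISWI ATPase of most cell types. SMARCA1 (chromosome X, 129446501 to 129523500 on GRCh38, minus strand) had 30.0, 30.8 and 27.5 CPM in the knockout libraries, against 11.5, 10.97 and 9.48 CPM in the parental ones. All 3 knockout libraries lay more than 2-fold above all 3 parental libraries, and the change was 1.46 (SE 0.12, adjusted p = 0.000478). SMARCA5 averaged 145.8 ± 5.94 CPM in knockout and 147.1 ± 22.9 CPM in parental libraries (-0.01, adjusted p = 0.955). Per kilobase of exon, the log2 ratio of SMARCA1 to SMARCA5 was -1.37, -1.34 and -1.40 in the knockout libraries, against -2.67, -2.60 and -3.24 in the parental ones. SMARCA5 thus stayed the more abundant of the pair in every library.

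SMARCAL1, an annealing helicase that remodels stalled replication forks, had 55.0, 53.6 and 53.3 CPM in the knockout libraries, against 31.9, 34.8 and 31.8 CPM in the parental ones (0.72, SE 0.09, adjusted p = 0.00237). The groups were far apart relative to their spread, and parental replicate 3 lay with the other parental libraries. SMARCA1 and SMARCAL1 were the 2 members whose call held with each of the 6 libraries left out in turn, at an adjusted p of at most 0.00571 for SMARCA1 and 0.0213 for SMARCAL1. INO80, the ATPase of the INO80 complex, did not pass (0.12, adjusted p = 0.416).

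The promoter stretches of both genes are shown because theirs were the calls that no single library decided. They come from the RefSeq table on GRCh38.p14 and run 5′ to 3′ on the gene's strand up to the first annotated exon, with CG dinucleotides in capitals. SMARCA1 is chrX:129523501-129523740, minus strand, and SMARCAL1 is chr2:216412234-216412413, plus strand.
SMARCA1: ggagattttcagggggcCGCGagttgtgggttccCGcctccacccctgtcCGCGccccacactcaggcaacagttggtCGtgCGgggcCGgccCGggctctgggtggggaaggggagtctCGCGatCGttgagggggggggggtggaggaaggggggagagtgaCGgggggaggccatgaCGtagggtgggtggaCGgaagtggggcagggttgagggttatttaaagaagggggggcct
SMARCAL1: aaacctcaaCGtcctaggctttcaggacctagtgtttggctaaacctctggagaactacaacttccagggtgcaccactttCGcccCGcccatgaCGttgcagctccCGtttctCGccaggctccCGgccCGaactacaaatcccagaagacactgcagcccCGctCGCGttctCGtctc
The first stretch holds 15 CG dinucleotides in 240 bases and the second 12 in 180 bases. Over the full 250 bases before the RefSeq start they held 16 and 17, more than 59% and 61% of the 35116 windows of the table. Of the 95 members, 84 had an entry, with 128 windows, and the median window held 22 CG dinucleotides among members and 11 among all windows.

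Among the CHD remodelers, CHD5 rose, CHD4 fell and 7 did not pass. CHD5, a CHD ATPase known mainly from neural tissue, stayed near the limit of detection, with 18, 16 and 20 reads in the knockout libraries, against 7, 1 and 2 reads in the parental ones. These are 0.318, 0.290 and 0.331 CPM in knockout and 0.123, 0.0167 and 0.0352 CPM in parental libraries, so parental replicates 2 and 3 lay under the limit of 3 reads. CHD5 passed the low-count filter only through the knockout group, where it is high, so a gene kept in this way had to differ, and its fold and p are given as a description. It was not tested under the filter of 1 CPM in 3 libraries. The change was 2.40 (SE 0.56, adjusted p = 0.0239), and 3.49 without parental replicate 1. Leaving out any single knockout library or parental replicate 2 ended the call (adjusted p at most 0.0884), as did the replicate block (0.0617).

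CHD4 is the main ATPase of NuRD, a complex that joins remodelling to deacetylation. CHD4 had 11.2, 11.02 and 11.01 CPM in the knockout libraries, against 16.2, 17.2 and 18.6 CPM in the parental ones (-0.65, SE 0.11, adjusted p = 0.0072), a call lost without knockout replicate 2 (0.0546) and with the replicate block (0.0507). Of its exon bases, 53.5% are shared with other annotated genes, mostly AC006064.6 on the same strand, so its level is uncertain. CHD3, the other classical NuRD ATPase, averaged 139.5 ± 3.42 CPM in knockout and 172.2 ± 48.8 CPM in parental libraries and did not pass (-0.30, adjusted p = 0.318). The remaining CHD genes ran from CHD1 at -0.14 to CHD9 at 0.62. CHD9 was the nearest to the threshold, with an adjusted p of 0.0586, and it passed with the replicate block (0.64, adjusted p = 0.0482). CHD7, the gene mutated in CHARGE syndrome, stood at -0.01 and CHD8, a repressor of beta-catenin targets, at -0.12.

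Of 11 zinc-dependent deacetylases, HDAC1 and HDAC9 fell and HDAC6 rose. HDAC9, a class IIa deacetylase that binds MEF2 factors, had 1.29, 1.71 and 1.39 CPM in the knockout libraries, against 24.5, 25.6 and 3.25 CPM in the parental ones. Every knockout library lay under every parental library, but parental replicate 3 lay much nearer to the knockout libraries than to the other parental ones. The change of -3.60 (SE 0.77, adjusted p = 0.0168) was the furthest from 0 of all members. It became -4.15 without parental replicate 3 (adjusted p = 6.69e-12), and the call ended when any single knockout library was left out (at most 0.0797), with limma-voom (0.0683) and with the replicate block (0.055). The log2 ratio, per kilobase of exon, of HDAC9 to its class IIa relative HDAC4 was -6.53, -6.10 and -6.35 in the knockout libraries, against -1.84, -1.68 and -5.21 in the parental ones.

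HDAC9 (chromosome 7, 18086949 to 19002416, plus strand) has 5 windows in the RefSeq table, 1 at the distal start and 4 at internal starts. The distal window, chr7:18086575-18086824, and the first internal window, chr7:18495460-18495709, are shown because they differ in composition. Capitals mark CG dinucleotides and a match to the AP-1 motif TGANTCA, which reads the same on both strands.
HDAC9 distal: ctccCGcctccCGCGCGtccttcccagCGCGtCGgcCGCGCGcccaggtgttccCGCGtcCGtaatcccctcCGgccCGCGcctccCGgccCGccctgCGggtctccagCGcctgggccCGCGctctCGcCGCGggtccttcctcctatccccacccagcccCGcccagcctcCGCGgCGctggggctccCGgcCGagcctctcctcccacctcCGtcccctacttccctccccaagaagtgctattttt
HDAC9 internal: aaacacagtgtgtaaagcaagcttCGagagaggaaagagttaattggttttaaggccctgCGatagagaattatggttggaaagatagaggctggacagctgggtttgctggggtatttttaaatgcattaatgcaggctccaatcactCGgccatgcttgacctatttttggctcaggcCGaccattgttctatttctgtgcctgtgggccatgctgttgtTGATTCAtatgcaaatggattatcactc
The distal window holds 32 CG dinucleotides, more than 90.5% of all windows, and no match to the motif. The internal window holds 4, more than 29.3% of all windows, and TGATTCA beginning 28 bases before the start. The motif occurs in 3.91% of the 128 member windows and in 6.57% of all windows, and CAGGTG on either strand occurs in 14.1% of member windows, the HDAC9 distal one among them, and 17.5% of all windows. The counts are per gene and do not separate transcripts from these starts.

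HDAC1, a catalytic subunit of NuRD, SIN3 and CoREST complexes, had 65.1, 62.9 and 63.1 CPM in the knockout libraries, against 89.6, 93.6 and 123.4 CPM in the parental ones (-0.68, SE 0.14, adjusted p = 0.0161). Leaving out a knockout library, whichever it was, ended the call (adjusted p at most 0.0819), as did the replicate block (0.0535). HDAC2, its paralog in the same complexes, had 106.0, 102.6 and 97.2 CPM in the knockout libraries, against 111.6, 108.6 and 158.7 CPM in the parental ones. It did not pass (-0.31, adjusted p = 0.23), though every knockout value lay under every parental one. HDAC3, the deacetylase of the NCoR and SMRT corepressors, stood at -0.32 (adjusted p = 0.107), and passed with DESeq2 (-0.37, adjusted p = 0.037).

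HDAC6, a mostly cytoplasmic deacetylase of tubulin, averaged 37.1 ± 4.22 CPM in knockout and 25.7 ± 3.05 CPM in parental libraries (0.53, adjusted p = 0.0347). Knockout replicate 3, at 41.98 CPM, was the highest, and the other knockout libraries had 34.5 and 34.9 CPM, above the 22.4 to 28.4 CPM of the parental libraries. This call was lost with every library left out except parental replicate 3 (adjusted p at most 0.12), under RLE factors (0.0546), without a low-count filter (0.105) and under the replicate block (0.119). The class IIa genes HDAC4, HDAC5 and HDAC7 did not pass (0.27, -0.21 and -0.07), nor did HDAC8 (0.05), HDAC10 (-0.01) or HDAC11 (0.15). Of HDAC10's exon bases, 55.8% are shared with MAPK12, so its level is uncertain.

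Among 6 tested sirtuins, the NAD-dependent deacylases, SIRT3 of the mitochondria rose and 5 did not pass. SIRT3 had 20.7, 20.3 and 22.1 CPM in the knockout libraries, against 13.8, 13.8 and 16.5 CPM in the parental ones (0.52, SE 0.12, adjusted p = 0.0227). Its groups lay apart, though the call was lost with every library left out except parental replicate 3 (adjusted p at most 0.0953), without a low-count filter (0.0788) and with the replicate block (0.0714). The others were SIRT7, a nucleolar deacetylase, at -0.27, SIRT4 at -0.22, SIRT2 at -0.12, SIRT1 at 0.15 and SIRT5 at 0.24. The mitochondrial genes thus gave a rise for SIRT3 and no call for SIRT4 and SIRT5.

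Of the 4 lysine acetyltransferase genes that the symbol rule takes, KAT2B rose and KAT2A, KAT6A and KAT6B did not pass. KAT2B and KAT2A encode the alternative acetyltransferases PCAF and GCN5 of coactivator complexes such as SAGA. KAT2B had 10.5, 11.4 and 9.66 CPM in the knockout libraries, against 4.62, 5.04 and 7.90 CPM in the parental ones (0.85, SE 0.23, adjusted p = 0.0402). Parental replicate 3 again lay nearest to the knockout libraries, and without it the change was 1.07 (adjusted p = 1.55e-06). With any other library left out the call was lost (adjusted p at most 0.14), as with the replicate block (0.0898). KAT2A stood at 101.3 ± 10.3 CPM in knockout and 89.8 ± 14.1 CPM in parental libraries (0.17, adjusted p = 0.43). By length-scaled level, KAT2B lay under KAT2A in every library, with log2 ratios of -4.13 to -3.66 in knockout and -4.70 to -4.33 in parental libraries.

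**Figure D2:**
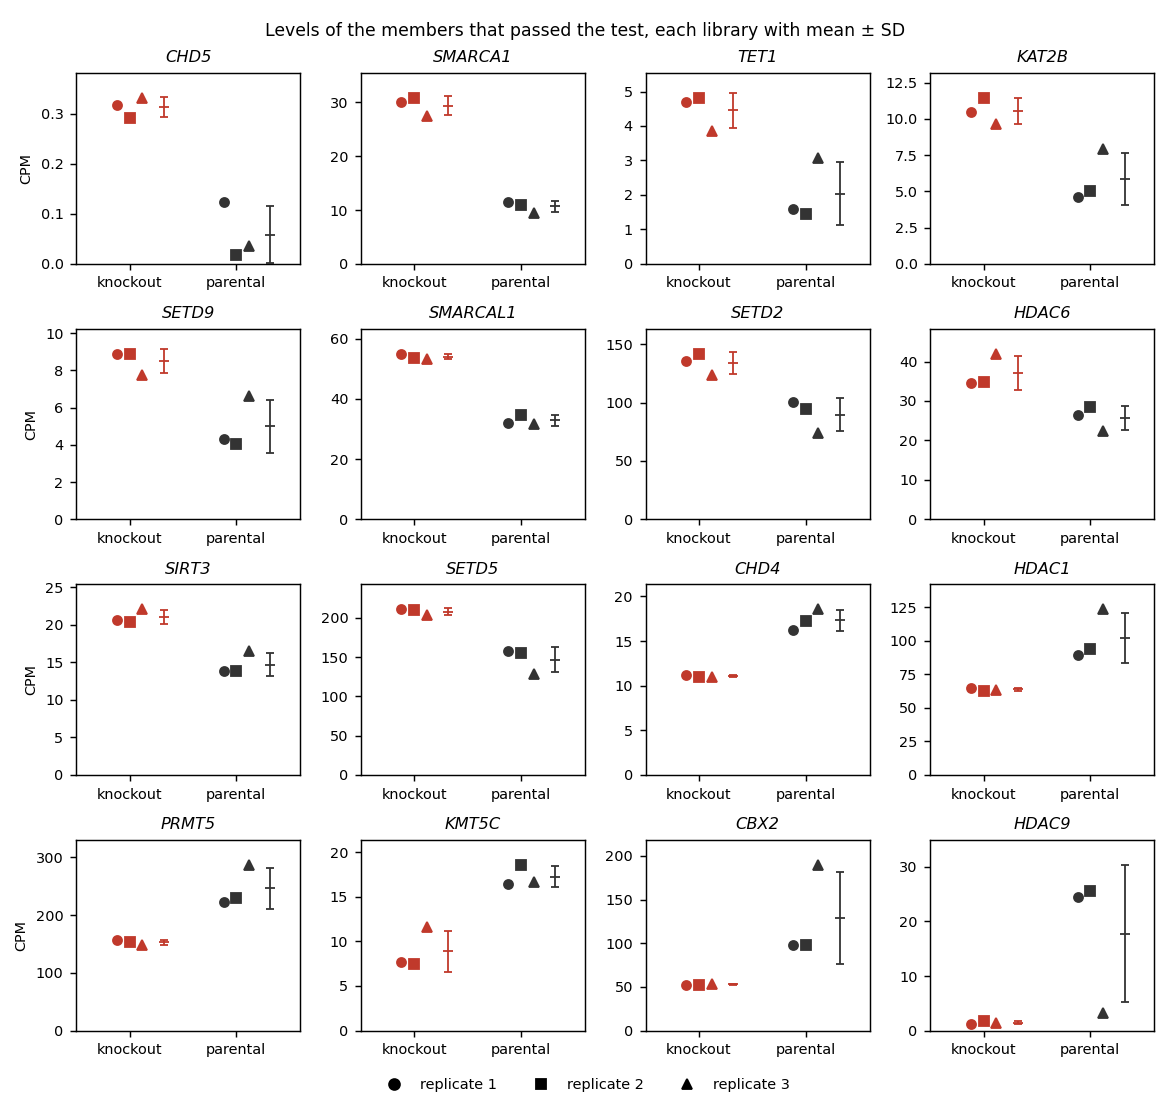
CPM (y axis, each panel from 0) of the 16 genes that passed the test, by group (x axis), with 1 symbol per library and the mean ± SD beside each group (n = 3). The knockout and parental libraries do not overlap in any panel; the parental triangle, replicate 3, is at 3.25 CPM for HDAC9 where the other parental libraries are at 24.5 and 25.6 CPM.

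Polycomb genes among the members gave 1 call, and the PRC1 subunits PHC1 and BMI1, which the symbol rule does not take, are given further below. CBX2, a chromodomain subunit of PRC1 that binds the mark written by PRC2 and compacts nucleosomes, had 52.6, 52.4 and 53.6 CPM in the knockout libraries, against 98.4, 98.6 and 189.7 CPM in the parental ones. The knockout libraries were closely grouped, and parental replicate 3 lay far above the other parental libraries. The change was -1.29 (SE 0.28, adjusted p = 0.0173), and -0.95 without parental replicate 3 (adjusted p = 3.49e-09). The fall did not pass when any single knockout library was left out (adjusted p at most 0.0763). Among PRC1 chromodomain genes, CBX6 (0.28, adjusted p = 0.0817), CBX7 (0.27) and CBX8 (0.20) did not pass; CBX7 shares 21.6% of its exon bases with other genes, and CBX6 passed with upper-quartile factors (0.33, adjusted p = 0.0347). Per kilobase of exon, the log2 ratio of CBX2 to CBX8 was 0.58, 0.55 and 0.58 in the knockout libraries, against 1.66, 1.52 and 2.79 in the parental ones, so CBX2 stayed the higher of the pair.

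None of the 4 PRC2 core genes passed. SUZ12, a scaffold subunit, had 73.6, 76.1 and 67.3 CPM in the knockout libraries, against 64.6, 62.5 and 82.5 CPM in the parental ones (0.05, adjusted p = 0.82). Those groups overlap, as parental replicate 3 lay above all 5 other libraries. Reads of the pseudogene SUZ12P1 came to 9.63% of SUZ12's own, so some exchange of reads is possible. The catalytic subunits EZH2 and EZH1 stood at -0.27 and 0.15, and EED, which reads the PRC2 mark, at -0.02. Of the HP1 genes, whose proteins bind methylated lysine 9 of histone H3, none passed. CBX5, encoding HP1 alpha, had 225.0, 230.4 and 192.2 CPM in the knockout libraries, against 194.2, 170.3 and 219.5 CPM in the parental ones, which overlap (0.15, adjusted p = 0.469). CBX3, encoding HP1 gamma, stood at -0.76 (adjusted p = 0.0952) with groups that did not overlap, and passed with DESeq2 (-0.81, adjusted p = 0.0276), while CBX1 stood at -0.05.

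Of the 6 genes for DNA methylation, TET1 rose and 5 did not pass. TET1, which oxidises methylcytosine, had 4.69, 4.81 and 3.86 CPM in the knockout libraries, against 1.59, 1.44 and 3.08 CPM in the parental ones. Parental replicate 3 was close to the lowest knockout library. The change was 1.13 (SE 0.32, adjusted p = 0.0463), and 1.50 without parental replicate 3 (adjusted p = 2.41e-06). With any other library left out the call was lost (adjusted p at most 0.143), as with the replicate block (0.0961). TET2 and TET3, with the same activity, stood at 0.42 (adjusted p = 0.0949) and -0.44 (adjusted p = 0.121). Per kilobase of exon, TET1 lay under TET3 in every library, with log2 ratios of -3.71, -3.69 and -3.81 in the knockout libraries, against -5.84, -5.94 and -4.30 in the parental ones. The maintenance methyltransferase DNMT1 stood at -0.26, and the de novo enzymes DNMT3A and DNMT3B at 0.23 and 0.39, none passing.

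Among methyltransferases of lysines 20 of histone H4 and 36 of histone H3, KMT5C fell and SETD2 rose. KMT5C, which with KMT5B writes the higher methyl states of lysine 20 found in heterochromatin, had 7.69, 7.44 and 11.6 CPM in the knockout libraries, against 16.4, 18.6 and 16.7 CPM in the parental ones. Knockout replicate 3 lay between the other knockout libraries and the parental group. The change was -0.95 (SE 0.20, adjusted p = 0.0164), which did not pass without knockout replicate 1 (0.0764), knockout replicate 2 (0.0744) or parental replicate 2 (0.0506). KMT5B stood at 0.10 and KMT5A, which writes the first methyl group on that lysine, at -0.08. The length-scaled log2 ratio of KMT5C to KMT5B was -1.93, -2.01 and -1.30 in the knockout libraries, against -0.91, -0.74 and -0.25 in the parental ones. SETD2, the enzyme that trimethylates lysine 36 behind RNA polymerase II, averaged 133.5 ± 9.40 CPM in knockout and 89.6 ± 14.2 CPM in parental libraries (0.58, SE 0.14, adjusted p = 0.0297). It did not pass when any single knockout library or parental replicate 2 was left out (adjusted p at most 0.114), or without a low-count filter (0.068).

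Of 5 other SET domain genes, SETD5 and SETD9 rose and SETD3, SETD4 and SETD6 did not pass. SETD5 had 210.9, 210.0 and 203.1 CPM in the knockout libraries, against 157.4, 155.0 and 128.1 CPM in the parental ones (0.50, SE 0.11, adjusted p = 0.0208). Its groups were well apart. The rise did not pass when any single knockout library was left out (adjusted p at most 0.091), without a low-count filter (0.0738) or under the replicate block (0.0657). SETD9 had 8.89, 8.88 and 7.77 CPM in the knockout libraries, against 4.33, 4.04 and 6.61 CPM in the parental ones (0.77, SE 0.22, adjusted p = 0.0471), a call lost with every library left out except parental replicate 3 (at most 0.151), under RLE factors (0.0521), without a low-count filter (0.0637) and under the replicate block (0.109). SETD6, which methylates the NF-kB subunit RELA, stood at 0.45 (adjusted p = 0.0639), with 21.4% of its exon bases shared with CNOT1. It passed with upper-quartile factors (0.51, adjusted p = 0.0342) and without parental replicate 3 (0.55, adjusted p = 2.05e-05). SETD3, a histidine methyltransferase of actin, stood at 0.00 and SETD4 at -0.09.

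None of the 8 H3K4 methyltransferase genes passed, with changes from -0.06 for KMT2B to 0.42 for KMT2A. SETD7, named for having the highest CPM of the class, had 272.7, 270.9 and 253.4 CPM in the knockout libraries, against 271.9, 250.8 and 197.5 CPM in the parental ones (0.15, adjusted p = 0.497). The groups overlap, with parental replicate 3 the lowest library. KMT2C and KMT2D, which methylate enhancers, stood at -0.04 and 0.10, and the COMPASS enzymes SETD1A and SETD1B at 0.12 and -0.05. For KMT2A and KMT2C, parental replicate 3 was lowest at 45.6 and 43.1 CPM, and knockout replicate 3 had 88.8 and 54.5 CPM where the other knockout libraries had 119.0 to 121.9 and 74.0 to 78.8 CPM.

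None of the 16 tested lysine demethylase genes passed with all 6 libraries. Without parental replicate 3, 15 of the 16 passed (93.8%, where 61.6% of all genes did), 6 rising and 9 falling, with KDM6B at -0.89 (adjusted p = 5.95e-08). KDM5C, an X-linked H3K4 demethylase named by the same rule, had 197.0, 191.6 and 193.6 CPM in the knockout libraries, against 163.8, 169.9 and 126.4 CPM in the parental ones (0.34, SE 0.14, adjusted p = 0.118). The groups did not overlap, but the spread of the parental libraries was wide. The range ran from KDM6B at -0.61 (adjusted p = 0.118) to KDM7A at 0.61 (adjusted p = 0.359), with 8 genes above 0 and 8 below. KDM6A and KDM6B, which remove the PRC2 mark, stood at -0.23 and -0.61, and KDM1A, a NuRD- and CoREST-linked amine oxidase, at -0.49 (adjusted p = 0.129). Of KDM4A's exon bases, 48.5% are shared with other annotated genes, so its level is uncertain.

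Of 7 tested arginine methyltransferase genes, PRMT5 fell and 6 did not pass. PRMT5, the main enzyme of symmetric arginine dimethylation, had 156.7, 154.0 and 148.8 CPM in the knockout libraries, against 223.3, 229.2 and 287.0 CPM in the parental ones (-0.69, SE 0.13, adjusted p = 0.0101). The groups were well apart, and without parental replicate 3 the change was -0.61 (adjusted p = 7.56e-08). Its call was lost without knockout replicate 1 (0.056), 2 (0.0608) or 3 (0.061). Per kilobase of exon it was the highest member, at a mean of 44.2 RPKM (CPM per kilobase of exon) in knockout and 71.1 RPKM in parental libraries. PRMT5-AS1 covers 27.1% of its exon bases on the opposite strand, and the strand setting of the counting was not given, so reads of the 2 cannot be told apart there. PRMT1, the main enzyme of asymmetric dimethylation, stood at -0.18 (adjusted p = 0.615), and PRMT7, which adds a single methyl group, at 0.63 (adjusted p = 0.113).

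Without parental replicate 3, 64 of 93 tested members passed, with 31 rising and 33 falling. That is 68.8% of them, where 61.6% of 18372 genes passed in that comparison, 30.8% rising and 30.8% falling. With all 6 libraries the order was the other way, at 17.4% of members and 27.6% of all genes. All 16 members called with 6 libraries were among the 64. Members among the 64 that did not pass with all 6 libraries included PRMT7 (0.92, adjusted p = 2.83e-07), TET3 (-0.65, 5.74e-07) and CBX3 (-0.42, 8.13e-06). They also included HDAC4 (0.41, 8.61e-06), KDM1A (-0.28, 0.000152) and CHD9 (0.40, 0.00128). Of the classes with no call among 6 libraries, 4 of 8 H3K4 methyltransferases and 1 of 3 HP1 proteins then fell. With a knockout library left out instead, 2 to 4 members passed, against 16 with all 6 libraries. Over all genes tested, 2692 to 2785 passed, against 4912 with all 6 libraries. The numbers of genes tested in those fits are not given here, so no shares are stated.

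Parental replicate 3 lay outside the other parental libraries for 86 of the 92 members (93.5%, where 91% of all genes tested did so), above both for 37 and below both for 49. It lay at least 2-fold from their mean for 12 members (13%), where 24.1% of all genes did so. The genes named next were chosen after their values were seen. Some were high there. DNMT1, which copies DNA methylation after replication, had 108.9, 105.6 and 102.6 CPM in the knockout libraries, against 85.3, 81.4 and 214.2 CPM in the parental ones. EZH2 had 19.9, 18.7 and 20.1 CPM in the knockout libraries, against 16.0, 15.7 and 39.3 CPM in the parental ones. In both, parental replicate 3 alone was above the knockout libraries and the other parental libraries were below them. Without it DNMT1 rose by 0.29 (adjusted p = 0.000104) and EZH2 by 0.26 (adjusted p = 0.00501), where with it they stood at -0.26 and -0.27. The proliferation markers moved likewise, with 16 of 20 rising without that library, and their part in these values was not tested.

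DNMT3B had 6.44, 7.13 and 6.74 CPM in the knockout libraries, against 2.26, 2.85 and 10.4 CPM in the parental ones. Its change of 0.39 became 1.36 without parental replicate 3 (adjusted p = 1.63e-06). PRMT3, which methylates a ribosomal protein, had 33.8, 33.2 and 31.0 CPM in the knockout libraries, against 24.1, 22.2 and 55.6 CPM in the parental ones, and its -0.06 became 0.45 (adjusted p = 3.99e-05). These genes share the order of DNMT1 and EZH2, with the knockout group between parental replicate 3 above and the other parental libraries below. EED followed it more narrowly, at -0.02 with and 0.25 without that library (adjusted p = 0.00536). SUZ12 then stood at 0.14 (adjusted p = 0.041). Without that library 3 of the 4 PRC2 core genes passed, all but EZH1, where 61.6% of all genes did so.

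Other members were low in parental replicate 3. HDAC5, a class IIa deacetylase, had 15.1, 16.2 and 17.3 CPM in the knockout libraries, against 24.2, 28.9 and 3.25 CPM in the parental ones, and its change of -0.21 became -0.76 without that library (adjusted p = 3.58e-05). KDM7A had 29.4, 29.7 and 26.9 CPM in the knockout libraries, against 26.2, 22.7 and 7.19 CPM in the parental ones, and its 0.61 became 0.18 (adjusted p = 0.0421). HDAC5 and HDAC9 thus had the same low value, 3.25 CPM from 185 reads each, in that library. KMT2D had 194.2, 190.9 and 164.1 CPM in the knockout libraries, against 220.4, 201.5 and 91.7 CPM in the parental ones, and its 0.10 became -0.25 (adjusted p = 0.00611). In all, parental replicate 3 lay on the far side of the knockout group from the other parental libraries for 29 members (31.5%), where it did so for 18.9% of all genes tested. Without it 18 members (19.6%) had another sign, where 15.7% of all genes did, and 11 members (12%) had another sign and passed, where 4.72% of all genes did.

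**Figure D3:**
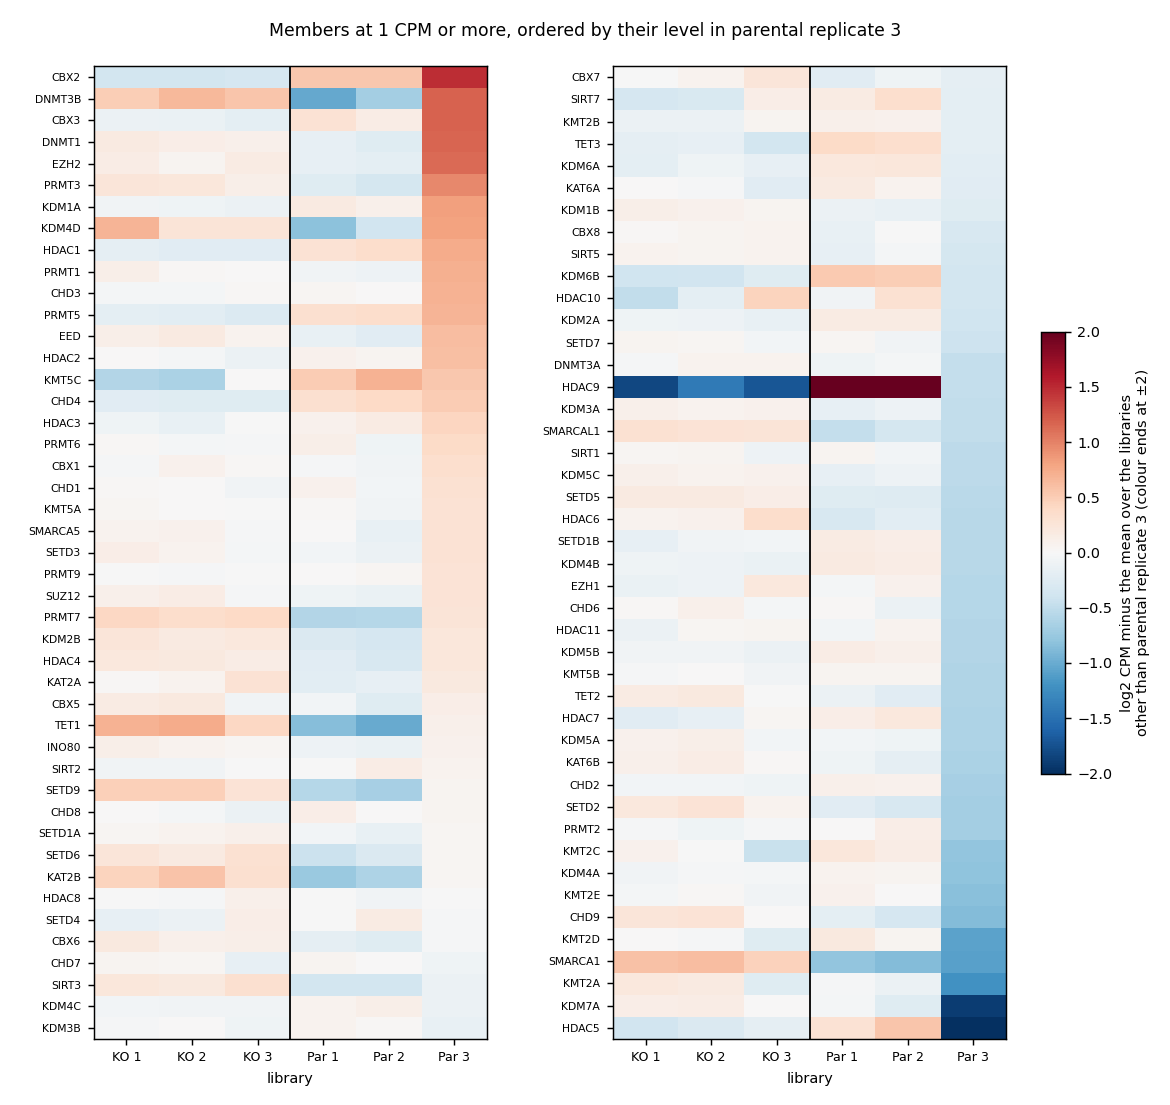
Log2 CPM of 89 members at 1 CPM or more on average in each library (columns, knockout left of parental), less the mean over the 5 libraries other than parental replicate 3, in rows ordered by parental replicate 3; colours end at 2 above and below. The rightmost column runs from dark red for CBX2, DNMT3B, CBX3, DNMT1 and EZH2 to dark blue for KDM7A and HDAC5, and the median coefficient of variation over members was 4.08% within the knockout group and 18.6% within the parental group.

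**Figure D4:**
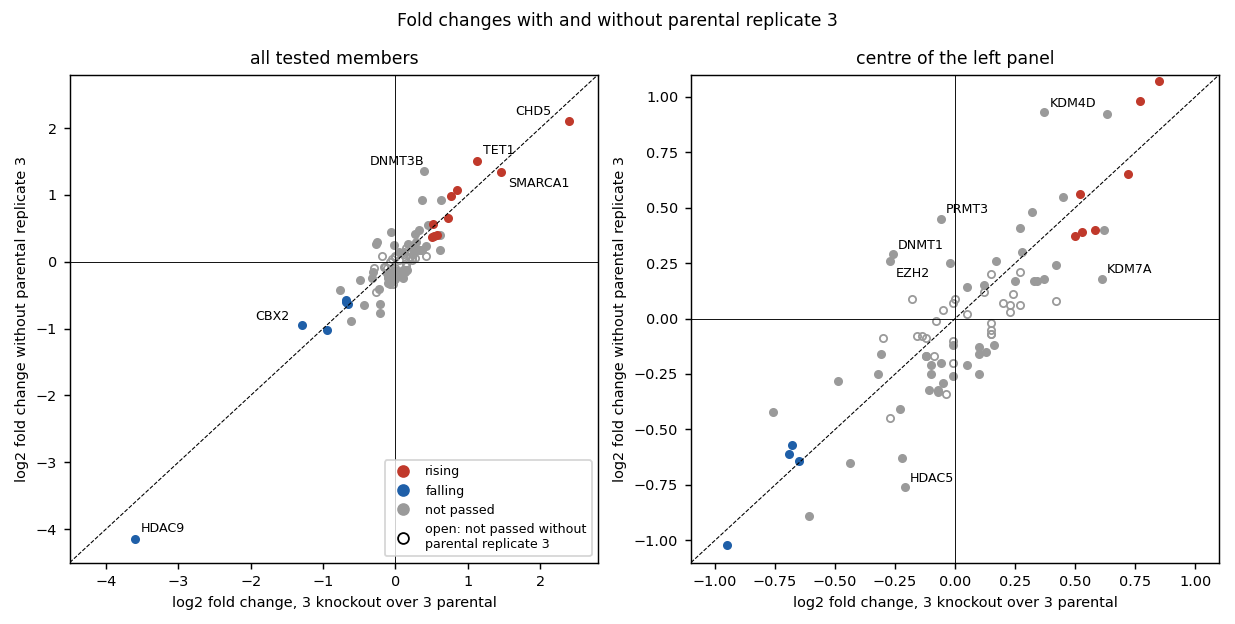
Log2 fold change without parental replicate 3 (y axis) against that with all 6 libraries (x axis) for 91 tested members, with the centre enlarged at right; colours give the call with 6 libraries, open circles did not pass without that library, and the dashed line marks equal values. The 16 coloured points keep their side of 0, with HDAC9 at -4.15 against -3.60 and CBX2 at -0.95 against -1.29, and DNMT1, EZH2 and PRMT3 lie above 0 on the y axis and below 0 on the x axis.

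Of 97 other chromatin regulators that the symbol rule does not take (other methyltransferases, demethylases and acetyltransferases, PRC1 and PRC2 partners, NuRD, SIN3 and corepressor subunits, methyl-binding proteins and ISWI partners), 92 were tested. Of these 7 rose and 8 fell, 16.3%, beside the 27.6% of all genes. The risers with the smallest adjusted p were BAP1, a deubiquitinase of histone H2A (0.75, SE 0.11, adjusted p = 0.00385), UHRF2, a paralog of the DNMT1 partner UHRF1 (0.79, SE 0.12, 0.00466), HR, a demethylase-family corepressor of nuclear receptors (2.96, SE 0.50, 0.00736), and the PRC1 subunits PHC1 (1.08, SE 0.19, 0.00904) and BMI1 (0.83, SE 0.15, 0.00934). All 5 calls held with each library left out in turn. Of BMI1's exon bases, 23.3% are shared with COMMD3-BMI1 on the same strand, so its level is uncertain.

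The fallers with the smallest adjusted p were SMYD3, a lysine methyltransferase (-2.75, SE 0.16, adjusted p = 0.000143), MBD2, the methyl-binding subunit of NuRD (-0.57, SE 0.09, 0.00469), SIN3A, the scaffold of an HDAC1 and HDAC2 complex (-0.51, SE 0.09, 0.00862), BAZ1A, a partner of SMARCA5 (-0.75, SE 0.16, 0.0151), and SETMAR, a SET domain gene fused to a transposase (-1.25, SE 0.26, 0.016). The calls of SIN3A and BAZ1A ended when any single knockout library was left out (at most 0.0605 for SIN3A and 0.0785 for BAZ1A) and that of SETMAR without knockout replicate 2 (0.0805) or 3 (0.078). The replicate block also ended these calls (0.0562 for SIN3A, 0.0591 for BAZ1A and 0.0533 for SETMAR). The calls of SMYD3 and MBD2 held with each library left out in turn.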

How the data were processed

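The deposited files hold whole-number read counts for each gene symbol in each of 6 libraries. Per the submitters' processing notes, TopHat2 2.1.1, HTSeq 0.11.0 and hg38 were used. For the strand setting, the annotation release and any filter, no value was given. The 5 classes of unassigned reads, 13.8% to 15.3% of each file, were left out. Counts were filtered with filterByExpr, scaled with TMM factors and tested by edgeR 4.0.16 (R 4.3.3; robust quasi-likelihood F-test, two-sided, group as the only term), with Benjamini-Hochberg adjustment over the 17809 genes tested and a threshold of 0.05. The standard error was derived from the F value. The fit was also run on simulated counts that had the same spread in both groups and no outlying library. That run cannot show how parental replicate 3 affects the calls. No 2 replicates agreed within counting noise.

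Exon lengths, positions and shared exon bases come from GENCODE 29, matched by symbol for all 95 genes. As alternatives, factors were computed by RLE or upper quartile, the filter was dropped or set to 1 CPM in 3 libraries, and the test was changed to DESeq2 1.42.0 or voom of limma 3.58.1. The replicate number was also added as a block, and each library was left out in turn.

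The members, classes and lists were chosen with earlier results of these data known. Values in every library were given for genes that passed at 2-fold or more. In classes without one, they were given for the passing member with the smallest adjusted p, otherwise for the member with the highest CPM. Of the related regulators, the 5 rising and 5 falling genes with the smallest adjusted p were named. HDAC1, HDAC6, SETD9, CHD4, SMARCAL1, SETD2 and HDAC2, KMT2A and KMT2C, and the genes set out for parental replicate 3, were given values beyond this rule. The results of 1 member are not reported here, though it remains in the counts.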

Additional observations from a re-analysis of the deposited data

How the results depend on the processing

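In the main test 10 members rose and 6 fell, with 4912 calls over all genes. Under RLE factors 8 members rose and 6 fell, with 4930 calls over all genes. Upper-quartile factors gave 12 and 6 members, with 4977 calls over all genes. At 1 CPM or more in 3 libraries these were 9 and 6 (3984), and without a low-count filter 5 and 6 (4704). DESeq2 gave 10 and 8 (5990), and limma-voom 10 and 5 (4909). Shares are left out, as the numbers of genes tested under these settings are not given here. With 1 library left out, members rising ranged from 2 to 31 and falling from 0 to 33. Related regulators rising ranged from 5 to 25 and falling from 2 to 24. Over all genes the calls ranged from 2692 to 11325, with 1221 to 5665 rising and 1471 to 5660 falling. The highest of each range came without parental replicate 3 and the cause was not tested. With that library left out, 11 members that had not passed with 6 libraries passed with the other sign. Over the 6 libraries left out, log2 fold changes ranged from -0.21 (the value without parental replicate 3) to 0.17 for CHD2, and likewise from -0.15 to 0.27 for KDM4A, -0.25 to 0.32 for KMT2D, -0.12 to 0.32 for KMT2E, -0.13 to 0.20 for KMT5B and -0.16 to 0.25 for PRMT2. Without parental replicate 3 the highest values were 0.29 for DNMT1, 0.25 for EED, 0.26 for EZH2 and 0.45 for PRMT3, with lowest values of -0.51, -0.17, -0.50 and -0.29 without parental replicate 2. Same-numbered libraries correlated at -0.0487, -4.24e-05 and -0.0743 in their deviations from the group means, and unlike-numbered ones at -0.149 to 0.141. Deviations within a group of 3 are bound to each other, and parental replicate 3 dominates those of its group. These correlations therefore cannot decide whether the numbers pair the samples. With the replicate block, 4 members rose and 3 fell, 3 related regulators fell, and 3040 of all genes passed, 1378 rising and 1662 falling. No member called with 6 libraries changed sign under any of these alternatives. Depth limits CHD5, KDM4E and PRMT8, which had 20 reads or fewer in every library.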
